A study of Homo sapiens with 12 samples.

Results

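TE10 is an established human oesophageal squamous cell carcinoma line. The comparison described here is that of TE10 cells stably infected with an shRNA against UHRF1 with TE10 cells stably infected with a scramble control, 3 libraries each. These are 6 of the 12 libraries of the study, chosen by their labels; the other 6 are the same pair of groups in a second line, Kyse410. The Kyse410 libraries entered the same fit, and so bear on its filter, scaling and estimate of spread, but their values are given only where a response in TE10 was set against theirs. Polyadenylated RNA was taken with oligo(dT) beads from Trizol extracts and made into libraries with a VAHTS V3 kit. The labels do not say how many hairpins or clones stand behind the shRNA group, how long after infection RNA was taken, or whether the replicates were separate cultures, so a p-value here reflects variation among libraries that may be only technical. The study asked how UHRF1 bears on migration, invasion, the epithelial-mesenchymal transition and Akt signalling.

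UHRF1 is a nuclear protein that binds CpG sites methylated on only one strand of newly replicated DNA, and also binds and ubiquitinates histone H3. In doing so it brings the maintenance methyltransferase DNMT1 to those sites, and the deubiquitinase USP7 is known to stabilise it. Epithelial cells of stratified tissue such as the oesophagus carry basal keratins and hemidesmosomal integrins, and lose junction proteins when they take on mesenchymal features.

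The 6 libraries held 7857662 to 9809414 reads counted on genes, and 16060 genes passed the filter on low counts over the 12 libraries. Levels are given in CPM (gene reads scaled to a common library size), which can be compared between libraries for one gene but not between genes. A gene is said to have risen or fallen where its Benjamini-Hochberg adjusted p in edgeR's quasi-likelihood test was under 0.05, and fold changes are log2 with their standard error, shRNA minus scramble. Of all genes tested 38.8% passed that threshold, 18.8% upwards and 20.0% downwards. These shares stand beside the list counts below, but they were larger among well expressed genes. Among genes of at least 5 CPM with a place on chromosomes 1 to 22 or X, 23.1% rose and 22.9% fell. Every tested member of the lists of glycolysis (24), replication (45) and aminoacyl tRNA synthetases (20) reached 5 CPM. A list count near either pair of shares is not a result about that list. The first principal component of the 6 libraries, 57.7% of their variance, separated the groups. The second, 11.6%, set shRNA replicate 1 (score 29.2) apart from shRNA replicates 2 and 3 (-9.94 and -19.5), while the scramble libraries lay between -1.16 and 1.45. Without shRNA replicate 1 the total was 5639 genes, 3075 higher and 2564 lower, against 3019 higher and 3212 lower with it, so the side with more genes turned. Mitochondrial transcripts took 4.95% to 5.73% of gene reads in the shRNA libraries and 5.95% to 6.05% in the scramble libraries.

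The targeted gene followed its labels. UHRF1 stood at 82.1, 86.8 and 88.9 CPM in the shRNA libraries and at 173, 179 and 184 CPM in the scramble libraries. The groups did not overlap and the fold change was -1.06 ± 0.05 (SE, n = 3 against 3; edgeR adjusted p = 3.22e-23). Its relative UHRF2 fell by 0.28 ± 0.09, a call lost without scramble replicate 1 or shRNA replicate 2. Of the 13 squamous carcinoma markers that were tested, 10 fell and 3 rose (1 rose without scramble replicate 1), and their summed level was 2623 to 2718 CPM against 3640 to 3692 CPM. SOX2, another of these markers, had 10 reads over the shRNA libraries and 24 over the scramble libraries and was not tested. No blood cell marker was tested, their sum being 1.07 to 2.20 CPM over the 6 libraries. In bulk RNA, fewer cells of a type and less RNA per cell cannot be told apart.

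A small set of genes went from near absence to clear expression. Counted were genes that passed the test, with a mean under 0.5 CPM in one group and at least 2 CPM in the other. By this count 16 appeared in the shRNA libraries and 28 disappeared, of which 13 and 23 were coding genes with a symbol. Others were antisense genes whose reads may be those of a partner on the other strand, such as CLMAT3, which overlaps SPARC. An unnamed antisense gene that appeared shares 61% of its exonic bases with UGT1A6. Among those that appeared were the Wnt ligand WNT5A, the protease inhibitor SPINK6, the cancer-testis antigen MAGEA3, the epithelial repressor OVOL1, the glucuronidating enzyme UGT1A6 and the adaptor KANK4. Among those lost were the alarmin IL33, the serine protease inhibitors SERPINB3, SERPINB4 and SERPINB11, the cytokine receptor IL31RA and the chemokine CXCL11.

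Because UHRF1 acts through CpG sites, 5 promoter windows are printed, from genes that appeared or rose from a low level (ZFP42, MAGEA3, WNT5A) and from genes that were lost or fell far (KRT5, IL33). Each runs from 250 bases before to 50 bases after a RefSeq transcript start in GRCh38.p14, 5′ to 3′ on the gene's strand, and is the first listed window of its gene. The places are chr4:187995521-187995820 (plus strand), chrX:152698544-152698843 (plus), chr3:55487257-55487556 (minus), chr12:52520345-52520644 (minus) and chr9:6214899-6215198 (plus). Capitals mark every CG, which reads the same on both strands.
ZFP42: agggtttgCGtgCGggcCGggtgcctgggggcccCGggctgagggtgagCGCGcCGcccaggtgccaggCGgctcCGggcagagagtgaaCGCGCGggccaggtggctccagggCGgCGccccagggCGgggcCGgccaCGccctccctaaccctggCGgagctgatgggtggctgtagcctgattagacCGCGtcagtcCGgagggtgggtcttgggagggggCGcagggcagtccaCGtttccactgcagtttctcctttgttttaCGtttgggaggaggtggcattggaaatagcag
MAGEA3: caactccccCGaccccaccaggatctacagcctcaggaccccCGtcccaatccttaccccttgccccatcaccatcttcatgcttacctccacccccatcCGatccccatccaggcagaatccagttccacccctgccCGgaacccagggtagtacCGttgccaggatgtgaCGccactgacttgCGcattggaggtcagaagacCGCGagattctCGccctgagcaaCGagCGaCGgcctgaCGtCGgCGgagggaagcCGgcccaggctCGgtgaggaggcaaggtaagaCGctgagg
WNT5A: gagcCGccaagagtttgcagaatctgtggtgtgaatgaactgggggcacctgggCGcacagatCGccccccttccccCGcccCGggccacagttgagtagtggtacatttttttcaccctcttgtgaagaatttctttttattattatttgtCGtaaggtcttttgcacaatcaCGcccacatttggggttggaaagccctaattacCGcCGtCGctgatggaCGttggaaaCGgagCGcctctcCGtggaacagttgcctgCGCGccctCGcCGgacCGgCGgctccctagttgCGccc
KRT5: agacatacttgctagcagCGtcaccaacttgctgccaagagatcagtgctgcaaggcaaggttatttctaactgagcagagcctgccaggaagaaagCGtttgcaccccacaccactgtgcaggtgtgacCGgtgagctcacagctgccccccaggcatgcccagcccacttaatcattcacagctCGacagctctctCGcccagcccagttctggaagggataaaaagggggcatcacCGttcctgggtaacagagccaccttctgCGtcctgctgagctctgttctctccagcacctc
IL33: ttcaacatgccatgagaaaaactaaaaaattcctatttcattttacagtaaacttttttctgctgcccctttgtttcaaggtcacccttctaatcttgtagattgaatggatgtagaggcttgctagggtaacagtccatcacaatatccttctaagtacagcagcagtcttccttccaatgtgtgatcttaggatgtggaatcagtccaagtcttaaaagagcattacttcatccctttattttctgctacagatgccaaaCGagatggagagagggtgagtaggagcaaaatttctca

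The ZFP42 window held 24 CG, the MAGEA3 window 19 and the WNT5A window 21, against 7 in that of KRT5 and 1 in that of IL33. Over the first windows of all symbols in the table the median was 14 CG, and 95.8% held at least 1. The contrast among these 5 is not general, and they were chosen with their CG counts known. The risers ALPP and GRHL3 held 6 and 7 CG in their first windows, and SPARC, which fell far, held 11. Tertiles of tested coding genes were drawn by the ratio of observed to expected CG, not by the count of CG. By that ratio ZFP42 (0.697) and MAGEA3 (0.664) lay in the CpG-poor tertile, which ended at 0.727. Among the genes that appeared, 10 coding ones had a promoter sequence. Of these 7 lay in the CpG-poor tertile, 1 in the middle tertile and 2 in the CpG-rich tertile. Of 17 coding genes that disappeared and had a promoter sequence, 16 lay in the CpG-poor tertile, 1 in the middle and 0 in the CpG-rich tertile. Both sets are low in level, and low genes were more often CpG-poor. Each tertile held 3337 genes, of which 2438 in the CpG-poor, 2894 in the middle and 3024 in the CpG-rich tertile reached 5 CPM. The counts of genes that appeared or disappeared were not set against genes of like level. No methylation was measured in these files.

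WNT5A had 2.67, 2.56 and 2.12 CPM in the shRNA libraries and no read in any scramble library, 57 reads against 0. The 95% counting interval of its depth-scaled ratio started at 16.5 and had no upper end (edgeR adjusted p = 1.31e-08). Set against a floor of 3 reads over the scramble group, the ratio was 20.9. MAGEA3 had 54 reads against 2, a depth-scaled ratio of 29.8 (95% counting interval 7.85 to 252). MAGEA3 shares nearly all of its sequence with MAGEA6, so reads may be split between both. OVOL1, which represses mesenchymal genes in epithelia and shares 27% of its exonic bases with a gene on the other strand, had 2.67, 3.45 and 3.18 CPM against 0.258, 0.119 and 0.106 CPM (4.20 ± 0.52; edgeR adjusted p = 2.85e-09). IL33 went the other way, with 0.127, 0 and 0 CPM against 5.30, 4.52 and 3.92 CPM, or 1 read against 116 (ratio of scramble to shRNA 105, counting interval 18.5 to 4193). These intervals cover counting error only. SERPINB3, SERPINB4 and SERPINB11 are neighbours on chromosome 18 and the first pair are near-identical copies. SERPINB3 had 0.127, 0.383 and 0.133 CPM against 4.78, 6.18 and 4.24 CPM, and SERPINB4 had 2 reads against 81 (ratio of scramble to shRNA 36.8, counting interval 9.85 to 308.6). About 35% of the exonic bases of SERPINB3 are shared with a gene on the other strand. Genes of the germline and placenta, which are silent in most adult tissues, were mostly absent: of the list, 20 were tested, and 10 rose and 3 fell. ZFP42, a pluripotency factor, had 18.7, 18.8 and 19.4 CPM against 2.07, 2.14 and 2.01 CPM (3.19 ± 0.18). The placental alkaline phosphatase ALPP had 560.4, 560.1 and 559.9 CPM against 138, 137 and 131 CPM (2.05 ± 0.04), though its near-copy ALPG may take some of its reads. PEG10, an imprinted retrotransposon-derived gene, fell by 1.49 ± 0.08.

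Most of the transcription factors listed as epithelial regulators rose, and most of those listed for the epithelial-mesenchymal transition fell. Of 17 epithelial regulators tested, 10 rose and 4 fell, with a median log2 fold change of 0.22, and of 14 epithelial-mesenchymal transition factors 2 rose and 10 fell, with a median of -0.70, beside a median of 0.0015 over all genes tested. ELF3, an ETS factor of differentiated epithelium, had 50.4, 46.6 and 48.2 CPM in the shRNA libraries and 12.3, 11.8 and 14.6 CPM in the scramble libraries (1.90 ± 0.09; edgeR adjusted p = 1.99e-23). GRHL3, a grainyhead factor of barrier epithelium, had 8.52, 9.20 and 9.29 CPM against 0.775, 0.594 and 1.27 CPM (3.31 ± 0.29). OVOL2, the partner of OVOL1, had 6.11, 6.26 and 4.51 CPM against 1.42, 1.54 and 1.69 CPM (1.84 ± 0.28). In each of the 3 the groups stood well apart. ESRP1, which directs epithelial splicing, rose by 1.002 ± 0.10. TP63, the master factor of basal squamous cells, did not follow: it fell by 0.69 ± 0.06, with 57.6, 66.6 and 63.02 CPM against 109, 97.1 and 95.4 CPM. Among the opposing factors ZEB1 had 8.27, 6.77 and 7.43 CPM against 15.2, 15.3 and 15.99 CPM (-1.05 ± 0.16), and ZEB2 fell by 1.27 ± 0.17. TWIST1 had 2.54, 2.17 and 1.46 CPM against 8.40, 6.78 and 6.67 CPM (-1.80 ± 0.24). SNAI2 fell by 0.54 ± 0.07, FOXQ1 rose by 1.21 ± 0.10, and SNAI1, at 19.97, 18.5 and 21.2 CPM against 16.7, 17.9 and 18.3 CPM, did not pass the test (edgeR adjusted p = 0.253). GRHL3, OVOL2 and TWIST1 were chosen after their values were seen.

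Junction proteins split by the kind of junction. Of 22 tight junction and polarity genes 11 rose and 3 fell (median 0.49; 1 fell without shRNA replicate 1), of 10 desmosomal genes 3 rose and 4 fell, and of 15 adherens junction genes 2 rose and 8 fell (median -0.19). Both risers of the last group are partners in one complex. CDH1, the epithelial cadherin, had 114, 122 and 119 CPM against 51.3, 53.6 and 49.7 CPM (1.20 ± 0.06; edgeR adjusted p = 3.06e-24). JUP, the plakoglobin that binds it and was chosen after its values were seen, had 741, 751 and 746 CPM against 432, 414 and 406 CPM (0.84 ± 0.04). The neural cadherin CDH2, at 15.7, 17.2 and 16.98 CPM against 28.2, 30.2 and 31.4 CPM, fell by 0.85 ± 0.11, and CDH13, a cadherin without a membrane-spanning part, fell by 1.56 ± 0.09. Among tight junction genes CLDN4, a barrier claudin, had 161, 147 and 149 CPM against 95.2, 88.9 and 94.99 CPM (0.71 ± 0.06). LLGL2, a polarity protein, rose by 0.82 ± 0.09 and the scaffold TJP3 by 1.18 ± 0.18. In the desmosome the linkers PPL (0.87 ± 0.05) and DSP (-0.45 ± 0.04) moved apart, and the basal cadherin DSG3 fell by 0.95 ± 0.14.

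Most basal and stress keratins fell, and most genes of the simple epithelial list rose, with a smaller median change. The basal and stress list summed to 293 to 306 CPM in the shRNA libraries and 594 to 609 CPM in the scramble libraries. The sums of the simple epithelial list lay closer together, at 6148 to 6464 CPM against 5620 to 5662 CPM. Of 6 basal and stress keratins 5 fell and 0 rose (median -1.22), and of 11 simple epithelial keratins and surface markers 8 rose and 0 fell (median 0.37). KRT5, a basal keratin, had 7.89, 8.56 and 7.70 CPM against 66.5, 67.2 and 68.6 CPM (-3.06 ± 0.12; edgeR adjusted p = 4.21e-28). Its partner KRT14 had 11.96, 11.9 and 10.2 CPM against 53.6, 55.9 and 56.02 CPM (-2.28 ± 0.12). KRT17, a stress keratin, fell by 1.19 ± 0.07 and KRT16 by 1.26 ± 0.22; these and KRT6A have near-identical copies among which reads can be split. KRT19, a keratin of simple epithelium, had 488, 456 and 480.4 CPM against 229.6, 225 and 222 CPM (1.07 ± 0.04). The adhesion protein EPCAM had 204, 229 and 222 CPM against 135, 125 and 135 CPM (0.73 ± 0.05). In squamous terminal differentiation, a list that holds late rather than basal genes, 7 of 22 rose and 5 fell; KRT13, a suprabasal keratin, rose by 0.78 ± 0.04 and KLK10, a kallikrein protease, by 1.76 ± 0.21. The plot of epithelial, keratin and matrix genes shows these values for each library.

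**Figure D1:**
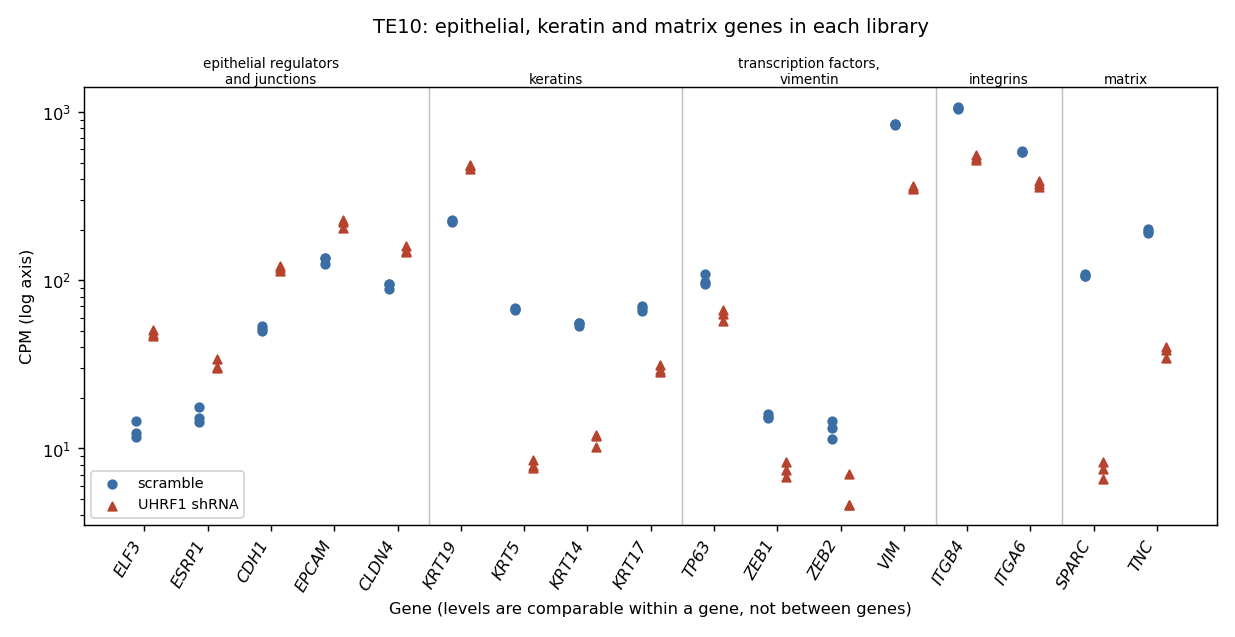
CPM of 17 genes in each TE10 library on a log axis, with circles for the 3 scramble libraries and triangles for the 3 UHRF1 shRNA libraries. In each gene shown the groups do not overlap: ELF3, ESRP1, CDH1, EPCAM, CLDN4 and KRT19 lie higher in the shRNA libraries, and KRT5, KRT14, KRT17, TP63, ZEB1, ZEB2, VIM, ITGB4, ITGA6, SPARC and TNC lie lower.

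Genes through which cells hold to and build the matrix mostly fell. Of 13 integrins 10 fell and 1 rose (median -0.61), of 19 collagens 13 fell and 3 rose (median -0.74), of 30 matricellular proteins 19 fell and 3 rose (median -0.53), and of 37 actin cytoskeleton genes 23 fell and 2 rose (median -0.14). ITGB4, which with ITGA6 forms the hemidesmosomal receptor for laminin, had 520.4, 556 and 535 CPM against 1040, 1055 and 1070 CPM (-0.97 ± 0.04; edgeR adjusted p = 3.33e-29). ITGA6 had 359, 391 and 376 CPM against 581, 584 and 579.8 CPM (-0.63 ± 0.04). Laminins, the ligands of this receptor, went both ways, with 3 of 11 higher and 5 lower, and LAMA3 was among the risers (0.47 ± 0.04). SPARC, a collagen-binding glycoprotein, had 6.62, 8.31 and 7.56 CPM against 106, 108 and 106 CPM (-3.83 ± 0.09). Tenascin C, from TNC, had 34.5, 40.2 and 38.7 CPM against 196, 201 and 191 CPM (-2.37 ± 0.07). COL5A3, a fibrillar collagen chain, fell to 1.15, 0.767 and 0.531 CPM from 16.4, 17.6 and 14.6 CPM (-4.28 ± 0.26), and COL6A2, a chain of microfibrillar collagen, fell by 1.61 ± 0.12. The enzymes that cross-link collagen split: LOXL1 rose by 1.46 ± 0.10 and LOXL2 fell by 0.59 ± 0.05. The focal adhesion adaptor TNS1 had 2.16, 1.53 and 2.52 CPM against 25.8, 25.3 and 28.2 CPM (-3.67 ± 0.17), and its relative TNS2 fell by 1.45 ± 0.08. The contractile genes MYLK (-1.44 ± 0.12) and CALD1 (-1.10 ± 0.08) fell as well. VIM, the mesenchymal intermediate filament, had 352, 362 and 353 CPM against 834, 850.5 and 849 CPM (-1.25 ± 0.04).

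Proteases of the matrix and the lysosome fell more often than they rose. Of 21 metalloproteinases and inhibitors 10 fell and 4 rose, of 10 plasminogen genes 5 fell and 2 rose, and of 29 lysosomal genes 14 fell and 6 rose. CTSB, the cysteine protease cathepsin B, had 442, 439 and 425 CPM against 966, 964 and 964 CPM (-1.15 ± 0.04; edgeR adjusted p = 2.87e-32). MMP1, the interstitial collagenase, had 36.01, 34.6 and 35.95 CPM against 79.2, 84.6 and 82.3 CPM (-1.21 ± 0.08). Tissue plasminogen activator, from PLAT, fell by 1.81 ± 0.12 and its inhibitor SERPINE2 by 1.28 ± 0.05. Of 23 genes in the list of S100 proteins and annexins 11 fell and 3 rose. The large scaffold AHNAK, counted in this list though it is neither, had 685, 739.6 and 768 CPM against 1481, 1525 and 1484 CPM (-1.03 ± 0.04). S100A14, an epithelial S100 protein, rose by 1.06 ± 0.06. Of 18 neuronal and microtubule genes 11 fell and 3 rose, with the microtubule-binding MAP1B at 1.78, 1.92 and 2.39 CPM against 21.2, 24.96 and 21.1 CPM (-3.46 ± 0.19).

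Markers of other cell types were few. Of the fibroblast markers 4 were tested, and COL1A1 (0.26 ± 0.07) and FBLN1 (0.28 ± 0.05) rose while PDGFRB and ACTA2 fell. The list summed to 256 to 272 CPM in the shRNA libraries and 222 to 225 CPM in the scramble libraries, and COL1A2, COL3A1, DCN, LUM and PDGFRA had at most 5 reads in a group. POSTN had 0 reads in the shRNA group and 11 in the scramble group, and FAP had none. Of the endothelial markers 3 were tested, with CDH5 higher (0.62) and EGFL7 lower (-0.48), and of the glandular and neuroendocrine markers 4, with 2 higher and 2 lower.

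**Figure D2:**
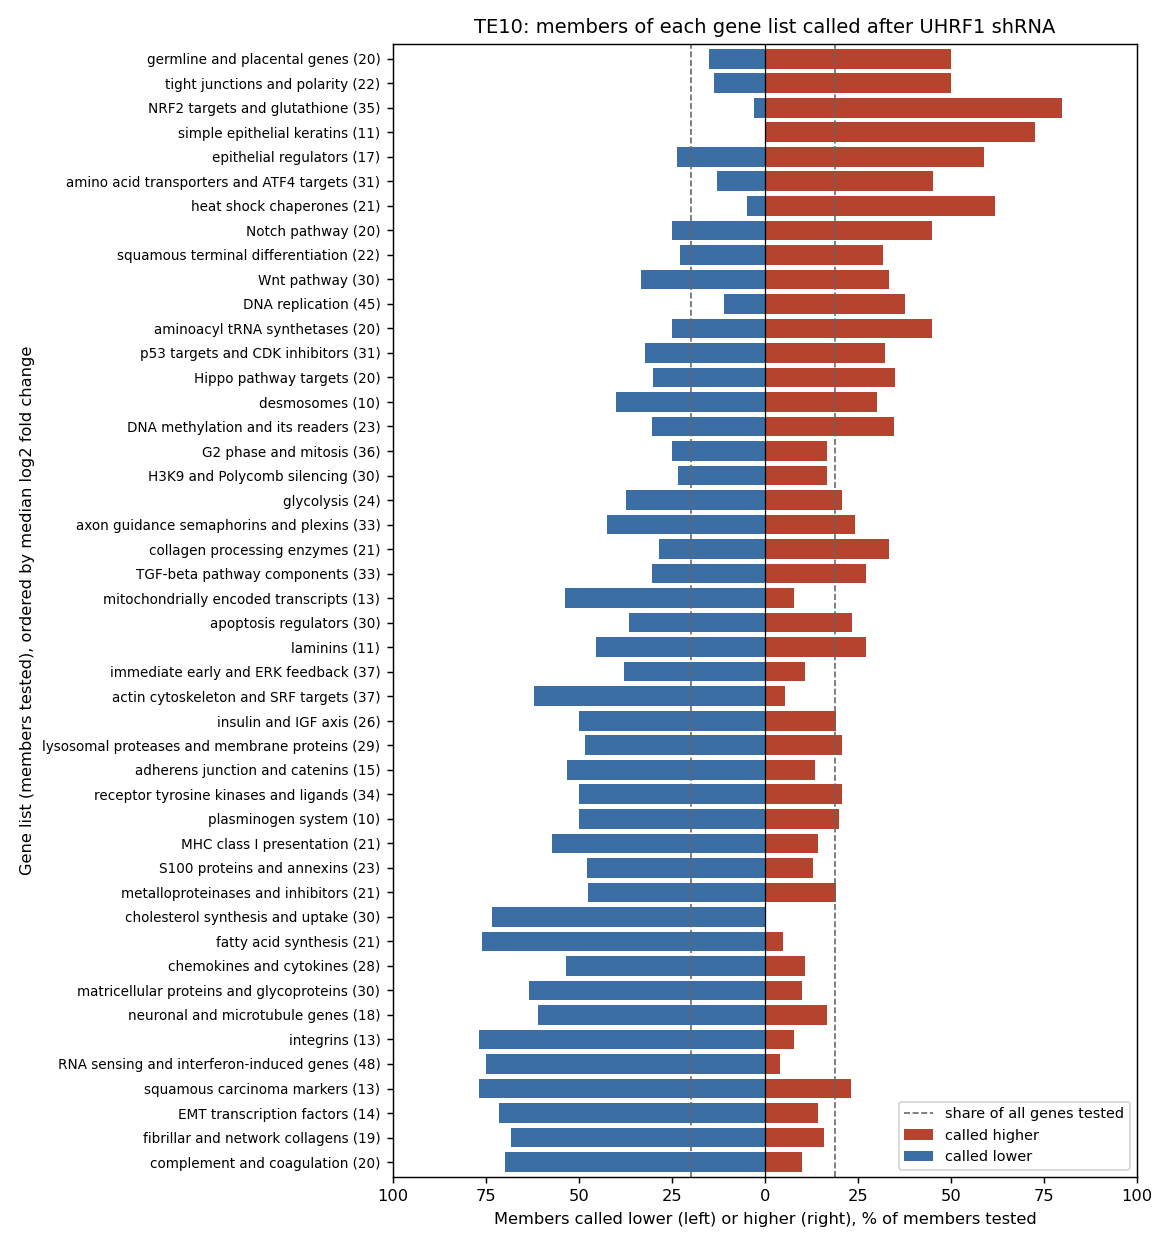
Share of tested members called lower (left) and higher (right) in TE10 for each gene list with at least 10 tested members, ordered by median log2 fold change, with the number tested in brackets. Dashed lines mark the shares over all genes tested, 18.8% higher and 20.0% lower. Among genes of at least 5 CPM on chromosomes 1 to 22 or X the shares were 23.1% and 22.9%. NRF2 targets stand out to the right with 28 of 35, and cholesterol and fatty acid synthesis to the left with 22 of 30 and 16 of 21.

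Most targets of NRF2, the transcription factor that answers oxidative stress, rose. Of 35 tested, 28 rose and 1 (GSTM3) fell, with a median of 0.42, and the list summed to 11520 to 12220 CPM against 8134 to 8204 CPM. TXNRD1, a thioredoxin reductase, had 1465, 1421 and 1491 CPM against 652, 655 and 663 CPM (1.15 ± 0.03; edgeR adjusted p = 1.03e-32). ALDH3A1, an aldehyde dehydrogenase, had 71.6, 61.98 and 68.3 CPM against 17.2, 15.2 and 20.8 CPM (1.92 ± 0.09). GPX2, a glutathione peroxidase of epithelia, had 19.3, 20.3 and 20.03 CPM against 5.43, 4.16 and 5.19 CPM (2.01 ± 0.17). Both subunits of the enzyme that starts glutathione synthesis rose, GCLC by 0.95 ± 0.07 and GCLM by 0.90 ± 0.07. The haem-degrading HMOX1 rose by 1.12 ± 0.14. NQO1, a quinone reductase, rose by 0.69 ± 0.05. The factor itself did not pass the test: NFE2L2 had 87.4, 90.9 and 90.9 CPM against 96.01, 94.6 and 95.6 CPM (edgeR adjusted p = 0.18). Its inhibitor KEAP1 rose by 0.42 ± 0.10. GCLC, GCLM, HMOX1, NQO1, NFE2L2, KEAP1 and GSTM3 were chosen after their values were seen.

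A gene of iron storage and one of iron uptake were among the largest rises in CPM. FTL, the ferritin light chain, had 2534, 2339 and 2495 CPM against 1063, 1035 and 1059 CPM (1.22 ± 0.04; edgeR adjusted p = 3.16e-33). TFRC, the transferrin receptor that brings iron into the cell, had 838, 891 and 896 CPM against 506, 496 and 498 CPM (0.81 ± 0.04). In neither gene did the groups come near each other. Of 31 amino acid transporters and targets of the stress factor ATF4, 14 rose and 4 fell (median 0.19). SLC7A5 and SLC3A2, which pair as the large neutral amino acid transporter, stood at 2255, 2302 and 2230 CPM against 1521, 1499 and 1527 CPM, and at 667, 597 and 674 CPM against 440, 410 and 403 CPM. They rose by 0.58 ± 0.03 and 0.63 ± 0.04. CTH, which makes cysteine, had 15.8, 15.8 and 14.9 CPM against 5.17, 4.75 and 5.61 CPM (1.57 ± 0.15), whereas PHGDH, the first enzyme of serine synthesis, fell by 1.12 ± 0.07. Among 21 heat shock chaperones 13 rose by at most 0.77, the value of HSPB8, and 1 fell. Of 3 metallothioneins tested 1 rose and 1 fell, the latter being MT2A (-1.09 ± 0.05).

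Most genes of lipid synthesis fell, in both branches. Of 21 fatty acid genes 16 fell and 1 (ME1, also in the NRF2 list) rose, with a median of -0.51, and of 30 cholesterol genes 22 fell and 0 rose, with a median of -0.48. SCD, the desaturase that makes oleate, had 209.9, 231 and 237 CPM against 661, 664 and 661 CPM (-1.55 ± 0.04; edgeR adjusted p = 1.55e-35). ACSS2, which makes acetyl-CoA from acetate, had 36.01, 42.4 and 43.5 CPM against 71.97, 71.4 and 71.9 CPM (-0.82 ± 0.07). FDFT1, the first enzyme that commits to sterols, had 197, 181 and 184 CPM against 366, 362 and 362 CPM (-0.96 ± 0.04). INSIG1, itself a target and a brake of the pathway, had 24.2, 24.5 and 20.6 CPM against 70.04, 72.3 and 72.8 CPM (-1.63 ± 0.09). The genes of both master factors fell, SREBF1 by 0.54 ± 0.05 and SREBF2 by 0.66 ± 0.04, a pair chosen after their values were seen. FASN, the fatty acid synthase, changed least among the 16 that fell (-0.20 ± 0.04); FASN and ME1 too were chosen after their values were seen. In glycolysis 5 of 24 rose and 9 fell. The glucose transporter SLC2A3 had 23.7, 22.9 and 24.7 CPM against 102, 104 and 109.9 CPM (-2.15 ± 0.07). The plot of metabolic and immune genes gives the values of 18 such genes by library.

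**Figure D3:**
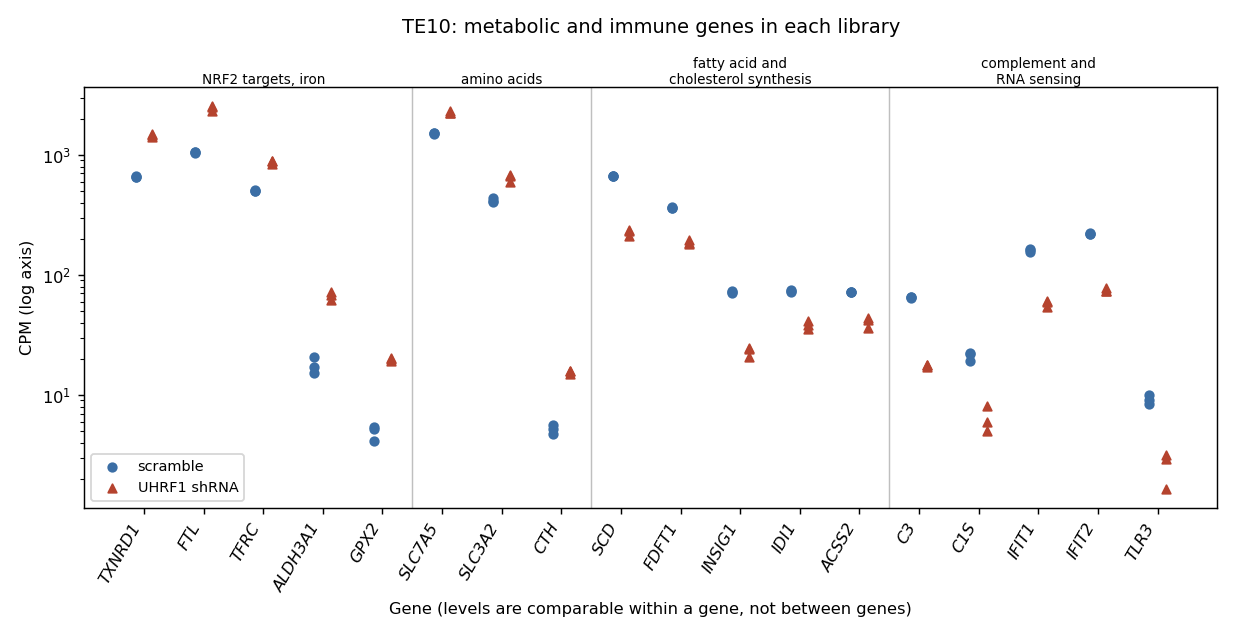
CPM of 18 genes in each TE10 library on a log axis, with circles for scramble and triangles for UHRF1 shRNA. The 8 genes of the NRF2, iron and amino acid groups lie higher in all 3 shRNA libraries, and the 10 genes of lipid synthesis, complement and RNA sensing lie lower, with no overlap between the groups.

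Most complement and antiviral genes fell. Of 20 complement and coagulation genes 14 fell and 2 rose (median -0.83), of 48 RNA sensors and interferon-induced genes 36 fell and 2 rose (median -0.63), and of 21 class I presentation genes 12 fell and 3 rose (median -0.23). C3, the central complement protein, had 17.1, 17.6 and 17.6 CPM against 65, 65.8 and 64.7 CPM (-1.90 ± 0.08; edgeR adjusted p = 6.40e-26). C1S, a protease of the classical pathway, had 5.98, 8.05 and 5.04 CPM against 22.4, 22.1 and 19.3 CPM (-1.73 ± 0.14). Inhibitors fell as well, with the membrane-bound CD59 at 299.6, 293 and 294 CPM against 526, 506 and 511 CPM (-0.80 ± 0.04), and the secreted CLU at a fold change of -0.85 ± 0.05. TLR3, a receptor for double-stranded RNA, had 1.65, 2.94 and 3.18 CPM against 9.04, 8.32 and 9.95 CPM (-1.81 ± 0.24), and RIGI, a cytosolic RNA sensor chosen after its values were seen, fell by 1.18 ± 0.09. IFIT2, an interferon-induced RNA-binding protein, had 73.5, 73.2 and 77.2 CPM against 225, 218 and 219 CPM (-1.56 ± 0.05). The light chain of class I molecules, B2M, fell by 0.48 ± 0.03 with 718, 713 and 753 CPM against 1009, 1024 and 1023 CPM. Of 28 chemokines and cytokines 15 fell and 3 rose, among the risers the membrane-bound CXCL16 (0.93 ± 0.07). CASP1, the caspase that matures interleukins, fell by 1.64 ± 0.16.

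Growth factor receptors, their feedback genes and the insulin axis had more falls than rises, while the TGF-beta, Wnt and Notch lists went both ways. Of 34 receptor tyrosine kinases and ligands 17 fell and 7 rose, and of 37 immediate early and ERK feedback genes 14 fell and 4 rose. DUSP6, the phosphatase induced by and directed at ERK, had 45.7, 46.3 and 47.9 CPM against 93.04, 95.5 and 91.6 CPM (-1.002 ± 0.06; edgeR adjusted p = 6.34e-20), and SPRY2, another feedback inhibitor, fell by 1.11 ± 0.11. FGFBP1, a carrier that frees fibroblast growth factors, had 15.9, 17.4 and 15.1 CPM against 62.1, 66.9 and 62.9 CPM (-1.99 ± 0.10), and the ligand NRG1 fell by 0.75 ± 0.10. In the insulin axis 13 of 26 fell and 5 rose: the adaptors IRS1 (-1.003 ± 0.09) and IRS2 (-0.96 ± 0.11) fell. AKT1 rose by 0.17 ± 0.05 and AKT2 by 0.28 ± 0.05. Of 33 TGF-beta pathway components 9 rose and 10 fell. BMP2, a bone morphogenetic ligand, had 41.9, 46.1 and 42.5 CPM against 11.9, 14.4 and 15.3 CPM (1.64 ± 0.09), and the inhibin chain INHBB rose by 1.34 ± 0.11. FST, which traps such ligands outside the cell, had 4.96, 6.13 and 6.50 CPM against 21.8, 20.2 and 21.1 CPM (-1.84 ± 0.13), and the extracellular target TGFBI fell by 1.15 ± 0.04. Of 30 Wnt genes 10 rose and 10 fell: beside the appearance of WNT5A, the receptors FZD2 (-1.13 ± 0.12) and FZD4 (-0.99 ± 0.11) and the factor LEF1 (-0.997 ± 0.18) fell. Of 20 Notch genes 9 rose and 5 fell, with the modifier LFNG up by 0.65 ± 0.11 and the receptor NOTCH2 down, fold change -0.68 ± 0.04. Of 20 Hippo targets 7 rose and 6 fell, and of 33 semaphorin and plexin genes 8 rose and 14 fell.

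The proliferation lists had medians near 0. Of 36 genes of mitosis 6 rose and 9 fell with a median of -0.01, and of 45 replication genes 17 rose and 5 fell with a median of 0.08. E2F1, which drives S phase, had 59.8, 62.5 and 70.05 CPM against 37.2, 45.05 and 41.7 CPM (0.63 ± 0.07; edgeR adjusted p = 7.73e-10). Of 31 p53 targets and cyclin-dependent kinase inhibitors 10 rose and 10 fell; the stress cytokine GDF15 rose by 1.80 ± 0.07 and the cyclin CCNG1 fell by 0.99 ± 0.09. Of 30 apoptosis regulators 7 rose and 11 fell, and the survival protein MCL1 had 365, 373 and 369.9 CPM against 656, 659 and 663 CPM (-0.84 ± 0.04). Of 20 aminoacyl tRNA synthetases 9 rose and 5 fell, of 21 collagen processing enzymes 7 rose and 6 fell, and of 13 mitochondrially encoded transcripts 1 rose and 7 fell. Some of these counts rest on 1 library. Without shRNA replicate 1 or scramble replicate 2, the fallers among synthetases were 2 and those among replication genes 3. Without shRNA replicate 1, the risers in glycolysis were 8 and those among mitochondrial transcripts 3. The risers among synthetases were 5 without shRNA replicate 3 or scramble replicate 3, and those among metalloproteinases 2 without scramble replicate 2.

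DNMT1 and USP7, the partners of UHRF1 named above, rose slightly while several methyl-CpG readers fell. Of 23 genes of DNA methylation and its readers 8 rose and 7 fell (median 0.01; 4 fell without shRNA replicate 2), and of 30 genes of H3K9 and Polycomb silencing 5 rose and 7 fell (median -0.01; 2 rose without scramble replicate 2, and 3 without scramble replicate 1 or 3 or shRNA replicate 2 or 3). DNMT1 had 393, 414 and 423 CPM against 361, 345 and 369.8 CPM (0.19 ± 0.04; edgeR adjusted p = 8.03e-05). DNMT3B, a de novo methyltransferase, had 56.5, 53.3 and 53.5 CPM against 36.6, 40.1 and 35.3 CPM (0.55 ± 0.08). USP7, the deubiquitinase named above and chosen here after its values were seen, had 283, 306 and 304 CPM against 218, 227 and 205 CPM (0.46 ± 0.04). The methyl-CpG binding proteins ZBTB4 (-0.69 ± 0.07), ZBTB33 (-0.56 ± 0.08) and ZBTB38 (-0.51 ± 0.06) fell. CBX7, a Polycomb reader, had 1.78, 2.43 and 3.32 CPM against 9.18, 7.84 and 7.09 CPM (-1.67 ± 0.22), and CBX5, the heterochromatin protein, fell by 0.46 ± 0.05.

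The direction of change followed the chromosome. Over 11414 genes of at least 5 CPM with a place on chromosomes 1 to 22 or X, 23.1% rose and 22.9% fell. On chromosome 16 the genes divided at the largest gap between neighbours, which spans the centromere. Before that gap 193 of 312 genes rose and 7 fell, with a median log2 fold change of 0.33 (a factor of 1.26), and 89.4% of the genes had a value above 0. After the gap 57 of 257 rose and 49 fell, with a median of 0.03. On chromosome 19, 352 of 752 rose and 77 fell (median 0.19), and on chromosome 21, 51 of 114 rose and 9 fell (median 0.15). Chromosomes 18 (11 of 160 higher, 40 lower, median -0.09) and 13 (27 of 193 higher, 66 lower, median -0.07) lay lowest. Together the first stretch of chromosome 16 with chromosomes 19 and 21 held 10.3% of these genes and 22.6% of those that rose. Among all other genes, those of chromosome 16 after the gap included, 2036 rose and 2518 fell. These chromosomes were picked after their values were seen, so the figures describe and do not test.

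**Figure D4:**
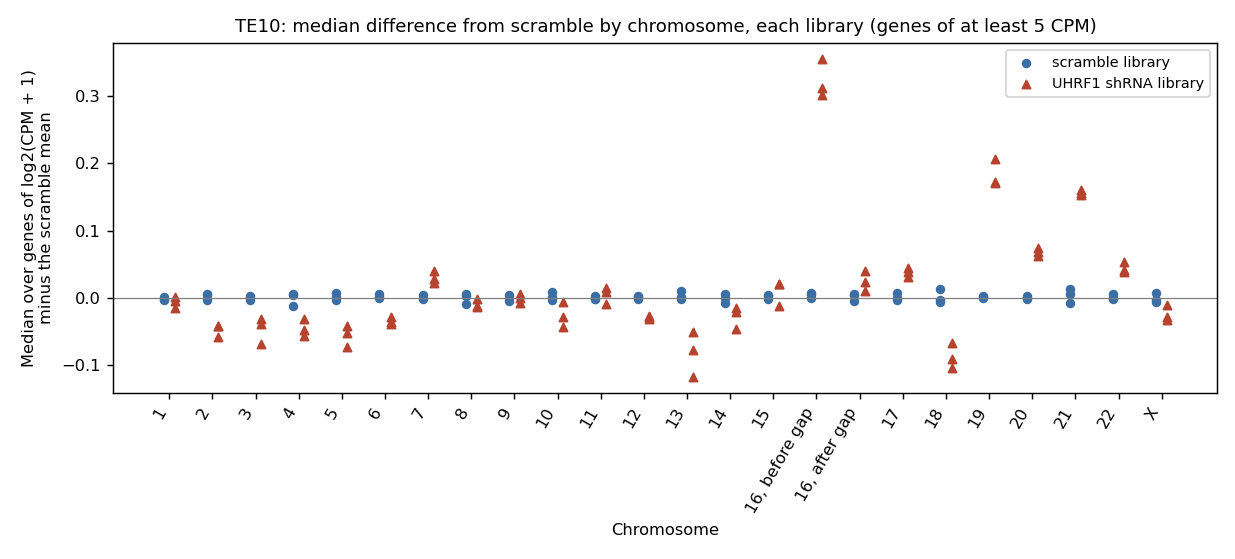
Median over genes of the log2(CPM + 1) difference from the scramble mean, for each chromosome and each TE10 library, with circles for scramble and triangles for UHRF1 shRNA (genes of at least 5 CPM). The 3 shRNA libraries lie at 0.36, 0.30 and 0.31 on chromosome 16 before its largest gap and at 0.04, 0.01 and 0.02 after it, and the scramble libraries lie within 0.01 of 0 in both.

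The shift on chromosome 16 was level along the stretch. In bins of about 40 neighbouring genes, the 8 bins before the gap, the last of which runs past it, had medians of 0.25 to 0.41, and the 6 bins after it had medians of -0.16 to 0.13. The 19 bins of chromosome 19 ran from 0.01 to 0.28 and the 3 bins of chromosome 21 from 0.14 to 0.24. Among the 249 bins of the other chromosomes the range was -0.23 to 0.27, and 1 of them, the first of chromosome 7, was above 0.25. In Kyse410 the same 8 bins had medians of 0.00 to 0.22, and the stretch had a median of 0.09. The Kyse410 medians were 0.06 on chromosome 19 and -0.08 on chromosome 21, beside -0.04 over all these genes. None of these was tested against TE10. Without shRNA replicate 1 the median of the first stretch was 0.34 and that of chromosome 19 was 0.20. The files hold RNA only, so the number of gene copies in the 2 groups was not measured, and its part in these values was not tested.

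**Figure D5:**
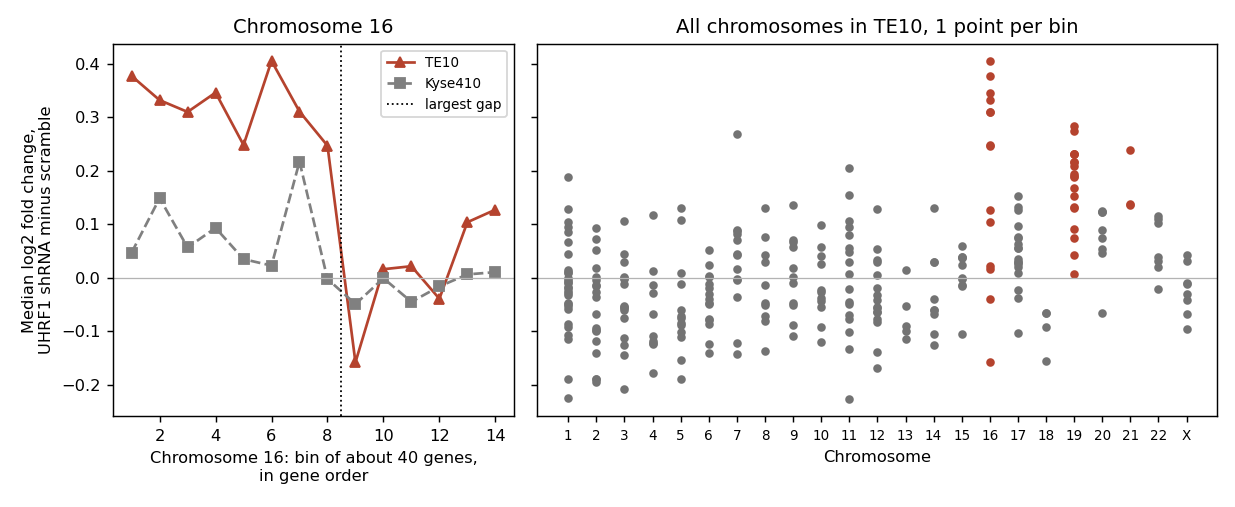
Median log2 fold change of bins of about 40 neighbouring genes, in gene order along chromosome 16 for TE10 and Kyse410 (left) and for all chromosomes in TE10 with 1 point per bin (right; chromosomes 16, 19 and 21 in red). The first 8 bins of chromosome 16 lie at 0.25 to 0.41 in TE10, and the 6 bins after the largest gap lie at -0.16 to 0.13.

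Several genes of interest lie on these chromosomes, of which USP7, PDPK1, AXIN1 and KEAP1 were chosen after their values were seen. USP7, PDPK1, a kinase that activates Akt (0.52 ± 0.07), AXIN1, a brake on Wnt signalling (0.44 ± 0.06), and PLK1, a kinase of mitosis (0.43 ± 0.04), lie on chromosome 16 before the gap, and CDH1 and SLC7A5 after it. DNMT1, AKT2, KEAP1, FTL and GDF15 lie on chromosome 19. The fold change of USP7 (0.46) lay within the quartiles of the chromosome 16 stretch (0.16 and 0.47), and that of PDPK1 lay above them. Those of DNMT1 (0.19) and AKT2 (0.28) lay within the quartiles of chromosome 19 (-0.0039 and 0.35), and those of FTL (1.22) and GDF15 (1.80) far above. Ribosomal proteins divided the same way: of the 14 on chromosome 19, 21 or the first stretch of chromosome 16, 11 rose and 0 fell (median 0.25), and of 61 elsewhere 14 rose and 5 fell (median 0.02).

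Falls were more frequent among genes with CpG-poor promoters, and rises as a whole among those with CpG-rich promoters, though large rises were not. In tertiles of 10011 tested coding genes by the ratio of observed to expected CG in their promoter windows, 16.96% rose and 27.4% fell in the CpG-poor tertile, and 24.8% rose and 18.9% fell in the CpG-rich tertile. Past 2-fold the order of the rises turned, with 3.03% of the CpG-poor tertile higher and 6.35% lower, and 0.569% of the CpG-rich tertile higher and 1.86% lower. At 5 CPM or more and outside chromosomes 19, 21 and the first stretch of 16, the shares of all rises and falls were 17.3% and 32.9% in the CpG-poor tertile and a nearly even 22.4% and 21.4% in the CpG-rich tertile. Within chromosomes 19, 21 and the first stretch of 16 they were 44.6% and 12% in the CpG-poor tertile and 62.8% and 3.3% in the CpG-rich tertile. Level went with the calls too, with 8.37% higher and 13.7% lower in the tertile of genes expressed lowest and 30.3% higher and 24.0% lower in the tertile expressed highest, where more reads give more power.

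Of the 6231 genes called in TE10, 3596 (57.7%) had a response that differed from that in Kyse410 by the interaction contrast, beside 38.9% of all genes tested. That contrast holds the same TE10 fold changes by which the genes were called. A larger share among them is therefore built in by the choice and is not a result. Among the genes of at least 5 CPM that differed most, STC1, a secreted glycoprotein hormone, had 77.5, 78.7 and 78.01 CPM against 280.5, 283 and 263 CPM in TE10 (-1.82 ± 0.05), and its fold change in Kyse410 was 1.37 (edgeR adjusted p of the difference = 2.34e-41). The cadherin-like FAT2, the matrix protein LTBP2 and the NAD-making enzyme NMNAT2 likewise fell in TE10 with fold changes above 0 in Kyse410. KRT5, described above with a fold change of -3.06 in TE10, had a fold change of 0.22 in Kyse410, which did not pass the test. It was hardly expressed in that line, with means of 1.37 CPM in the shRNA and 1.14 CPM in the scramble libraries. The clock genes PER3, CRY1 and BHLHE41 were among those that differed most the other way. PER3 had 13.7, 13.7 and 14.3 CPM against 6.46, 6.42 and 7.73 CPM in TE10 (1.01 ± 0.14), with a fold change of -1.20 in Kyse410. CRY1 had 45.04, 42.04 and 41.9 CPM against 21.2, 17.2 and 21.7 CPM (1.10 ± 0.09), with -0.83 in Kyse410. GDF15 had 75.1, 73.1 and 77.1 CPM against 24.03, 21.2 and 19.8 CPM (1.80 ± 0.07), with -0.68 in Kyse410, and the NRF2 target OSGIN1 rose by 1.03 ± 0.12 with -0.99 in Kyse410. The xenobiotic-metabolising CYP1A1 had 11.4, 10.3 and 12.6 CPM against 2.46, 2.73 and 3.92 CPM (1.89 ± 0.23) and a fold change of -0.03 in Kyse410.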

How the data were processed

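Whole-number read counts per gene were deposited for each library, 1 table per sample. Per the submitters' processing notes, bcl2fastq 2.19, HISAT2 2.1.0 and HTSeq 0.9.1 were used with GRCh37.p13, and DESeq2 is named; for the annotation release and for strandedness in counting, the status is: not given in the sources used here. Reads of overlapping genes on opposite strands cannot be told apart. Counts were used as deposited by the authors, without the 5 closing lines that name no gene, of which reads outside any feature took 44.3% to 44.7% of all reads in TE10. Symbols came from supplied name tables and GENCODE for 52339 of 57820 identifiers; UHRF1 was matched by its identifier.

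All 12 libraries entered 1 edgeR 4.0.16 quasi-likelihood fit (R 4.3.3, TMM scaling, filterByExpr), with a mean per group, and Benjamini-Hochberg adjustment ran over the 16060 genes kept. The fit was checked on simulated counts. DESeq2 1.42.0 served as an alternative. Gene lists were described by counts and medians, with no set test. Figures were drawn with matplotlib 3.10.9. Promoter windows are RefSeq's in GRCh38.p14, and gene order came from GENCODE; no coordinate was converted between builds. Replicates of a group differed beyond sampling noise, with a chi-square of 1.57 to 2.62 per degree of freedom between TE10 pairs.

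Genes named by rule were first taken among called coding genes averaging 5 CPM or more in TE10. They were the 12 largest rises and falls and up to 4 members per list, both with no overlap between groups. The 6 largest differences between lines each way were taken among those that passed the interaction contrast. Called genes with the 8 largest changes in CPM each way, the 8 largest appearances and losses from or to under 0.5 CPM, and a set of genes of interest to the study were added. Other genes given with values were chosen after these were seen, also where a marker or promoter is given without that remark. The members and lists were chosen with earlier results of these data known. Alternatives were other scalings, filters, a fit of TE10 alone, the DESeq2 Wald test, a replicate block and leaving out each library. Some genes counted in the lists are not reported here by name.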

Additional observations from a re-analysis of the deposited data

Results flagged for a closer look

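The 12 genes below are the 6 each way with the largest differences between the responses in TE10 and Kyse410. They were taken among coding genes called in TE10 with a mean of at least 5 CPM there. Passing the threshold in the interaction contrast of the edgeR fit was a condition of the choice and is not a result. Values are the log2 fold change in Kyse410 minus that in TE10. Of the genes that fell in TE10, FAT2 differed by 3.57, KRT5 by 3.29, NMNAT2 by 3.24, STC1 by 3.19, ADAM19 by 3.18 and LTBP2 by 2.87. KRT5 was hardly expressed in Kyse410, with means of 1.37 CPM in the shRNA and 1.14 CPM in the scramble libraries. Of the genes that rose in TE10, GDF15 differed by -2.48, PER3 by -2.21, OSGIN1 by -2.02, BHLHE41 by -1.94, and CRY1 and CYP1A1 by -1.93 each. What sets the lines apart in these genes was not tested.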

How the results depend on the processing

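Without a filter on low counts 5868 genes were called, with at least 5 CPM 5539, and with the 6 TE10 libraries alone 6177; DESeq2 size factors gave 6359, upper-quartile scaling 6185 and the DESeq2 Wald test 5523. Leaving out 1 library gave 5442 to 5830 genes. DESeq2 size factors turned the balance, with 3375 higher and 2984 lower against 3019 and 3212, as did the DESeq2 Wald test with 2922 and 2601, the filter of at least 5 CPM with 2956 and 2583, and leaving out shRNA replicate 1. The genes past 2-fold were fewer with at least 5 CPM, 124 higher and 234 lower against 343 and 628, since low genes were then not tested. Of the 245 genes named by rule, all that could be tested kept their direction in every alternative. Calls were lost only when 1 library was left out (UHRF2, LAMB2, HSPE1, SETDB2 and PAX9). Most of the 245 were picked for passing the test in these same libraries, so this stability is largely built in. Genes chosen after their values were seen were not part of this check. The shared replicate numbers did not pair the libraries: deviations of same-numbered libraries correlated at 0.021, -0.019 and 0.041. With the replicate block 6346 genes were called, 3084 higher and 3262 lower, and no gene named by rule changed its call. Counts of reads limit genes near 0: those that appeared or were lost rest on as few as 50 reads over 3 libraries. Small counts of risers in 4 lists also moved by over 1.5 times when 1 library was left out. Those of RNA sensing (2) were 1 without scramble replicate 1 or shRNA replicate 3, and those of actin genes (2) 1 without scramble replicate 1 or shRNA replicate 2. Those of complement (2) were 1 without scramble replicate 3, and that of integrins (1) was 0 without scramble replicate 2 or 3 or shRNA replicate 3. In cholesterol synthesis 1 rose without shRNA replicate 1. Counts per list and the values by chromosome without a library were added after seeing the data.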
